A study of Mus musculus with 4 samples.

Results

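The 38 cell cycle genes described here were taken as a fixed list of symbols, looked up among the 32285 genes of 4 single-cell RNA libraries, and all 38 were found. Cells were described by a rule on the same list: a barcode was kept if it showed 200 genes or more and if mitochondrial transcripts made up no more than 10% of its unique molecular identifiers (UMIs, tags that mark single captured RNA molecules), and it counted when it held at least 5 UMIs of the list. By that rule 2438 of 13363 barcodes counted in the lung library of mice with liver metastasis, 2234 of 14132 in the sham lung library, 1582 of 8597 in the metastasis blood library and 2567 of 13029 in the sham blood library. The mice were C57/Bl6 females of 6 to 8 weeks. In the metastasis groups 800000 B16F10 cells, a mouse melanoma line, were injected into the spleen on day 0, and in the sham groups saline was injected there. All mice of both groups then lost the spleen and received 250000 B16F10 cells under the skin, and lungs and blood were taken on day 7. The sources describe the enrichment for CD45, the leukocyte surface protein, in more than one way: kits for the lungs and blood in one place, density centrifugation for blood and live/dead columns for lung in another. The sources used here do not say how many mice went into each library.

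Cells license replication origins in G1 by loading the MCM complex, copy DNA in S phase with the clamp PCNA and with enzymes that supply deoxynucleotides, and enter mitosis under cyclins A and B with the kinase CDK1. Aurora and Polo kinases, kinetochore proteins and kinesins build and use the spindle, and the anaphase-promoting complex with its activator CDC20 and its ubiquitin-conjugating partner UBE2C ends mitosis. Most circulating lymphocytes rest in G0 and mature neutrophils have left the cycle, whereas activated lymphocytes, immature lymphocytes and red cell precursors divide. Hmgb2, a chromatin protein, and Stmn1, which destabilises microtubules, are among the members known to be made by resting leukocytes as well.

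Each tissue and arm was 1 library, so no test across samples was possible, and every interval below covers counting error only. The intervals of gene ratios also take each UMI as independent. Many members had several UMIs in the same few barcodes, such as Birc5 with 21 UMIs in 8 B cell barcodes of metastasis lung. For such genes the intervals are too narrow, and the calls that rest on them are less certain than they look. Barcodes were assigned to a class by marker genes, with the details of that scoring set after the data were seen. Genes that the gates did not use went with the labels: Nkg7, a cytotoxic granule gene, was at 3568 CPM, the UMIs of a gene per 1000000 UMIs of the class without haemoglobin, in metastasis and 3500 CPM in sham lung NK-gated barcodes, against 270.0 and 287 CPM in the T-gated ones. No barcode was gated as melanoma. Barcodes dominated by haemoglobin with red cell markers, called erythroid below, made up 39.9% of the kept barcodes of the metastasis lung library and 4.95% of the sham one, and 33.6% for metastasis blood against 1.40% for sham blood, although red cells lack CD45. Between 34 and 52 barcode sequences were shared by any 2 libraries, at most 0.477% of either. A doublet score over 0.3 was found for 2.95% of barcodes in metastasis lung, 4.88% in sham lung, 1.33% in metastasis blood and 5.79% in sham blood.

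The list did not count the same transcripts in every class. Hmgb2 supplied 42.6% of all member UMIs in metastasis and 44.8% in sham lung T-gated barcodes, and 88.5% in metastasis and 74.5% in sham blood neutrophils. In erythroid barcodes Ube2c and Nusap1, a spindle-associated protein gene, together supplied 65.7% in metastasis and 87.7% in sham lung, and in blood the 83.4% of metastasis lay below the share in sham. Passing 5 UMIs therefore recorded mostly Hmgb2 in neutrophils and mostly those 2 genes in erythroid barcodes, and the name "cycling cells" was not carried over to them. Without Hmgb2 and Stmn1, 7 of 1858 blood neutrophils in metastasis and 9 of 361 in sham still held 5 member UMIs.

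**Figure D1:**
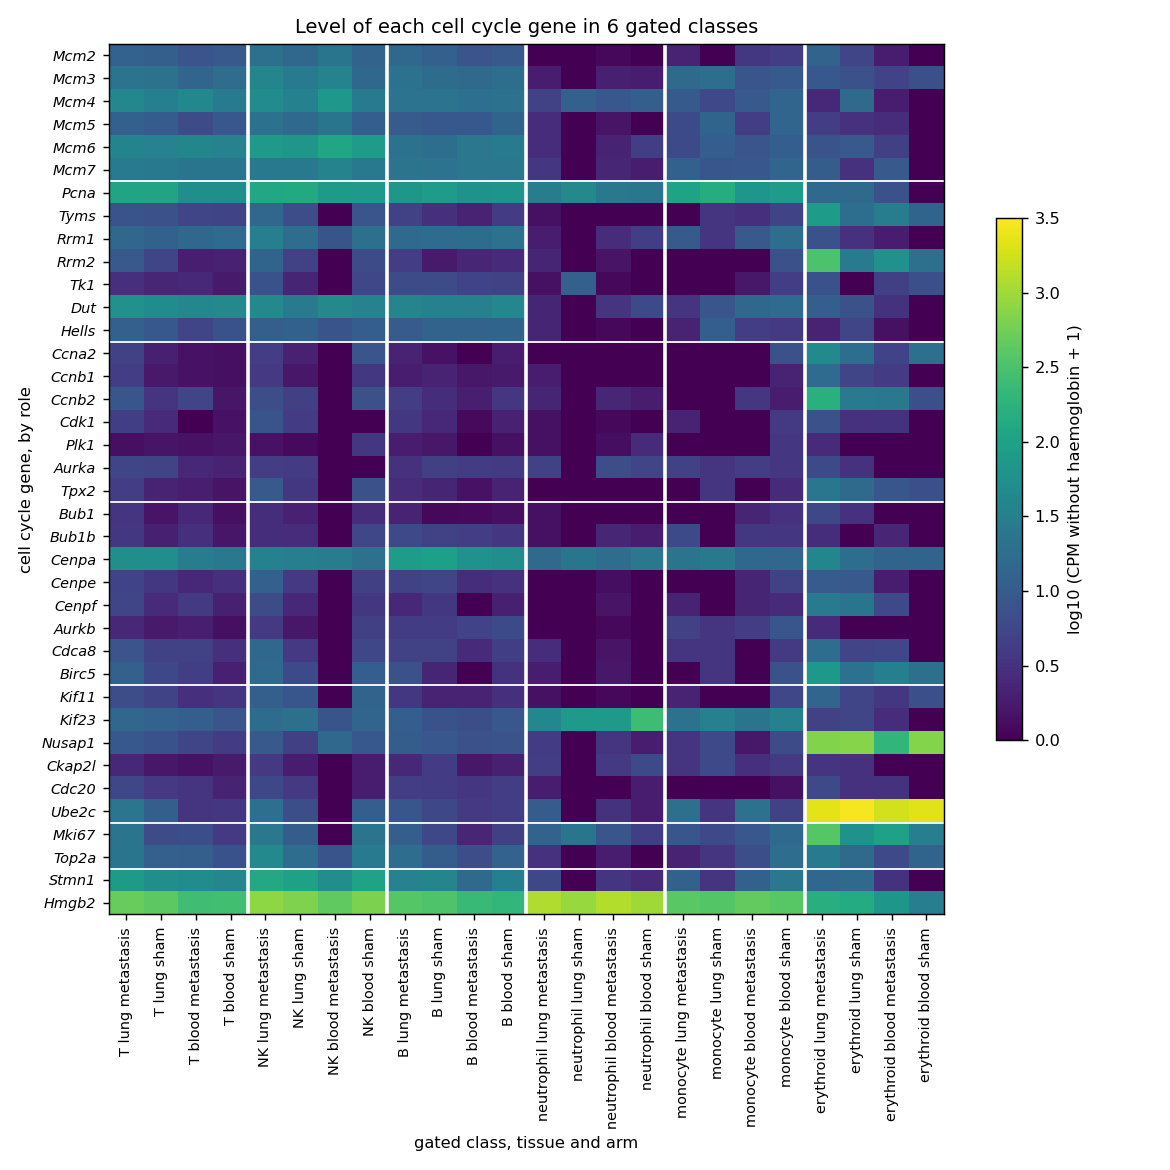
Level of the 38 genes, in rows grouped by role, as log10 of CPM without haemoglobin plus 1, in 6 gated classes of each library, with metastasis left of sham within each tissue. Ube2c and Nusap1 are bright in all 4 erythroid columns, and Hmgb2 is bright in every leukocyte column.

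By the 5-UMI rule the lymphocyte shares of the lung were lower in metastasis than in sham. In T-gated barcodes 237 of 1624 passed in metastasis (14.6%) and 957 of 4658 in sham (20.5%), a ratio of 0.710 (95% interval 0.614 to 0.820). In B-gated barcodes 56 of 1778 passed in metastasis (3.15%) and 291 of 4137 in sham (7.03%), a ratio of 0.448 (0.330 to 0.598). In NK-gated barcodes 162 of 971 passed in metastasis (16.7%) and 339 of 1832 in sham (18.5%), and the interval of the ratio, 0.743 to 1.09, included equality. Barcodes that no gate took went the other way, with 62 of 350 in metastasis (17.7%) and 8 of 199 in sham (4.02%). Lung neutrophils passed in 225 of 1055 barcodes in metastasis (21.3%), and the 7 of 38 in sham are too few for a comparison.

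In blood the same rule gave 57 of 523 T-gated barcodes in metastasis (10.9%) and 569 of 2298 in sham (24.8%), a ratio of 0.440 (0.329 to 0.579). B-gated barcodes passed in 58 of 1618 in metastasis (3.58%) and 1006 of 8020 in sham (12.5%), a ratio of 0.286 (0.215 to 0.373). Both lymphocyte classes were lower in metastasis blood by this rule. After thinning to 1000 UMIs, 2 of 521 T-gated barcodes passed in metastasis and 8 of 2294 in sham. These are too few to give an order (ratio 1.10, 0.114 to 5.52). Neutrophils passed in 682 barcodes of 1858 in metastasis (36.7%) and 133 of 361 in sham (36.8%), with an interval of the ratio of 0.826 to 1.21. Monocytes passed in 92 of 219 in metastasis (42.0%) and 127 of 286 in sham (44.4%), with an interval of 0.715 to 1.25.

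**Figure D2:**
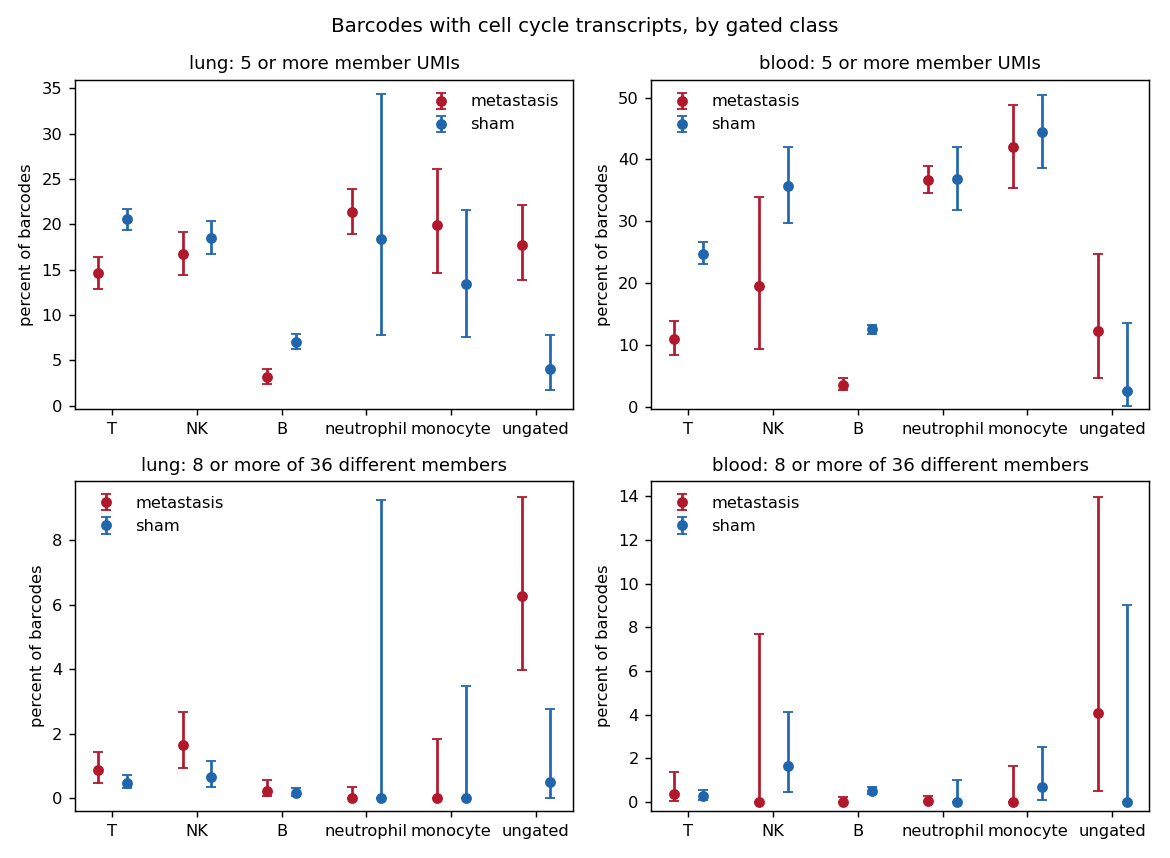
Percent of barcodes (y axis) with 5 or more member UMIs (upper panels) and with 8 or more different members of 36 (lower panels) in 6 gated classes of lung and blood, metastasis left of sham, with exact 95% Clopper-Pearson intervals. The upper panels place most lymphocyte shares of metastasis below those of sham, and the lower left panel places the T-gated, NK-gated and ungated shares of metastasis lung above those of sham lung.

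These shares moved with depth. The median UMI count without haemoglobin was 2864 in metastasis and 3628 in sham lung T-gated barcodes, and 2378 in metastasis and 3500 in sham blood B-gated barcodes. Among lung T-gated barcodes of 2000 to under 4000 UMIs, 12.1% of 1201 passed in metastasis (10.3 to 14.1%) and 14.8% of 2662 in sham (13.5 to 16.2%). At 4000 to under 8000 UMIs, 36.7% of 207 passed in metastasis (30.1 to 43.7%) and 30.4% of 1681 in sham (28.2 to 32.7%). The order of the values turned round between the 2 depths, but the intervals of metastasis and sham overlapped at each. Lung NK-gated barcodes of 4000 to under 8000 UMIs passed in 35 of 43 in metastasis (81.4%) and 74 of 124 in sham (59.7%). Lung B-gated barcodes of 2000 to under 4000 UMIs passed in 6.56% in metastasis and 6.50% in sham. Blood B-gated barcodes of that depth passed in 2.77% of 1012 in metastasis and 4.13% of 5031 in sham. At 4000 to under 8000 UMIs they passed in 16.0% in metastasis and 17.9% in sham. Blood T-gated barcodes were lower in metastasis at both depths. They passed in 7.45% of 282 in metastasis and 13.8% of 341 in sham, then in 15.5% of 219 and 24.2% of 1747. At 8000 UMIs or more 2 of 2 passed in metastasis and 98 of 188 in sham. Lung B-gated barcodes of 4000 to under 8000 UMIs kept the order of the whole class, with 7 of 47 in metastasis (14.9%) and 88 of 275 in sham (32.0%). With each barcode thinned to 1000 UMIs, 18 of 1611 lung T-gated barcodes passed in metastasis and 39 of 4618 in sham, and the ratio was 1.32 (0.712 to 2.37). The thinned ratios were 1.59 (0.846 to 2.96) for lung NK-gated and 1.77 (0.657 to 4.57) for lung B-gated barcodes, so all 3 intervals included equality.

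A second count asked how many different genes of the list a barcode held, leaving out Hmgb2 and Stmn1, so that no single abundant transcript could carry it. The minimum of 8 different members of 36 was chosen after the data were seen. Of the barcodes that were not rich in haemoglobin, 74 of 7054 in metastasis lung (1.05%) and 48 of 11994 in sham lung (0.400%) reached it, a ratio of 2.62 (1.80 to 3.85). In blood 9 of 5162 reached it in metastasis (0.174%) and 75 of 12291 in sham (0.610%), a ratio of 0.286 (0.126 to 0.572). The 2 tissues thus differed in opposite directions on this count, which was matched neither for depth nor for the mix of classes. Of the 75 in sham blood, 41 were B-gated and 20 were mixed in their markers, 10 of the latter with a doublet score over 0.3. Blood T-gated barcodes, with 2 of 523 in metastasis and 6 of 2298 in sham, were too few to set beside the blood total. Among lung NK-gated barcodes 16 of 971 reached it in metastasis and 12 of 1832 in sham, a ratio of 2.52 (1.12 to 5.83). Among lung T-gated barcodes 14 of 1624 reached it in metastasis and 22 of 4658 in sham, with an interval of the ratio of 0.864 to 3.73 that included equality. Ungated lung barcodes reached it in 22 of 350 in metastasis (6.29%) and 1 of 199 in sham. No lung neutrophil reached it. After thinning to 2000 UMIs, 5 different members were found in 14 of 1412 lung T-gated barcodes in metastasis and 18 of 4398 in sham, a ratio of 2.42 (1.12 to 5.16), and in 15 of 454 NK-gated barcodes in metastasis and 9 of 1228 in sham, a ratio of 4.51 (1.85 to 11.7).

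Members differed in how far their transcripts were gathered in such barcodes. To avoid counting a gene in its own favour, each gene was scored by the share of its UMIs in barcodes with at least 8 of the other members, over all 4 libraries without haemoglobin-rich barcodes. The most gathered genes were of mitotic entry and of the kinetochore. Ccna2, cyclin A2, had 91.2% of its 193 UMIs there, and Birc5, survivin of the chromosomal passenger complex, 81.7% of 562. Bub1, a spindle checkpoint kinase, had 81.3% of 96, and Cdk1 72.3% of 249. Other genes of these roles were less gathered, such as Plk1 with 40.3%, Cenpe with 37.1% and Bub1b with 29.3%. Mki67, which coats mitotic chromosomes and is the usual marker of proliferation, had 61.1% of 1180 UMIs there, and Top2a, the topoisomerase that untangles replicated DNA, 55.4% of 1627. The S-phase genes differed among themselves: Rrm2, the cycle-controlled subunit of ribonucleotide reductase, had 64.8%, above Mki67. Tyms, thymidylate synthase, had 37.6%, and Pcna 7.78% of 10014. The 6 Mcm genes lay between 7.91% for Mcm4 and 21.5% for Mcm5. At the low end were Kif23, a kinesin of the central spindle, with 5.49% of 2478 UMIs, and Aurka, a centrosomal kinase, with 7.14% of 448. Cenpa, the centromeric histone, was the lowest with 4.41% of 6026. Aurka was listed among the mitotic entry genes and Cenpa among the kinetochore genes. Most Kif23, Aurka, Cenpa and Pcna transcripts in these leukocytes therefore lay in barcodes with few other members. Hmgb2 had 9.35% and Stmn1 33.3% there.

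**Figure D3:**
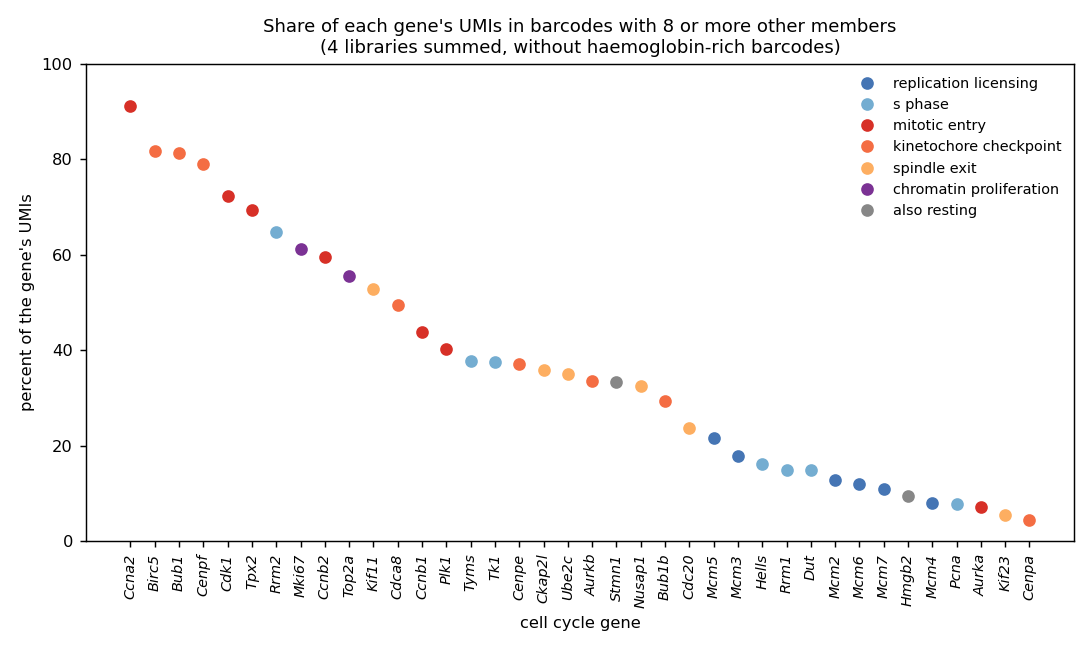
Percent of each gene's UMIs (y axis) that lie in barcodes with 8 or more of the other members, for the 38 genes in falling order (x axis) and coloured by role, over the 4 libraries without haemoglobin-rich barcodes. Mitotic entry and kinetochore genes fill the far left, with Ccna2 at 91.2%. Aurka and Cenpa, of the same roles, lie on the right with Mcm genes, Pcna and Kif23.

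Cell cycle promoters are known for a few short elements: sites of the E2F factors in genes of G1 and S phase, the cell cycle homology region (CHR) bound by the DREAM and B-MYB complexes in genes of G2 and mitosis, and CCAAT boxes bound by NF-Y. Sequences were taken from RefSeq on build GRCm38.p6, as 250 bases before to 50 after the annotated start, for 33 of the 38 genes in 34 windows. The letters searched, on both strands, were TTTGAA and TTTAAA for CHR, TTTCGCGC, TTTGGCGC, TTTCCCGC and TTTGCCGC for E2F, and CCAAT, and motifs of different kinds overlapped in 2 of the 34 windows. CHR letters were in 67.6% of the member windows and 27.6% of all 32851 windows, E2F letters in 17.6% and 2.26%, and CCAAT in 82.4% and 37.4%. E2F letters were in 4 of the 6 windows of Mcm genes, in 1 of the 7 of the other S-phase genes and in 1 of the 5 of mitotic entry genes. CHR letters were in 5 of 5 windows of mitotic entry genes and 6 of 7 of kinetochore genes, against 2 of 6 of Mcm genes. The 6 windows below show both kinds, for a pair of replication genes, a pair of mitotic genes and for Kif23 and Hmgb2, which had low shares of UMIs in barcodes rich in other members. Each runs 5′ to 3′ on the gene's strand, and capitals mark CHR, E2F and CCAAT letters on either strand. Mcm5 lies at chr8:75109259-75109558 on the plus strand, Mcm6 at chr1:128359656-128359955 on the minus strand, Ccnb2 at chr9:70421505-70421804 on the minus strand, Ube2c at chr2:164769679-164769978 on the plus strand, Kif23 at chr9:61946750-61947049 on the minus strand and Hmgb2 at chr8:57511593-57511892 on the plus strand.
Mcm5: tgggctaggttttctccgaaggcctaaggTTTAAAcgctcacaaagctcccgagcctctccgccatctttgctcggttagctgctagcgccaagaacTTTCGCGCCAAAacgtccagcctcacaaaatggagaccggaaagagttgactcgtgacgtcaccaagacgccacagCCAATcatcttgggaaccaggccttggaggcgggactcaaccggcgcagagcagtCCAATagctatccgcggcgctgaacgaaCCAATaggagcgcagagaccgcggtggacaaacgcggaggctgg
Mcm6: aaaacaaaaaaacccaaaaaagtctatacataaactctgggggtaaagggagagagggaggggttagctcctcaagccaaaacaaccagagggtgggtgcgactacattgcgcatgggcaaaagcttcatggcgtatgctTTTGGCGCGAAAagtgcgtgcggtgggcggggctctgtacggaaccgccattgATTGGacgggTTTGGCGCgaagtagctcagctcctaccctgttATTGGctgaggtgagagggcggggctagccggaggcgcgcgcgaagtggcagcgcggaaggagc
Ccnb2: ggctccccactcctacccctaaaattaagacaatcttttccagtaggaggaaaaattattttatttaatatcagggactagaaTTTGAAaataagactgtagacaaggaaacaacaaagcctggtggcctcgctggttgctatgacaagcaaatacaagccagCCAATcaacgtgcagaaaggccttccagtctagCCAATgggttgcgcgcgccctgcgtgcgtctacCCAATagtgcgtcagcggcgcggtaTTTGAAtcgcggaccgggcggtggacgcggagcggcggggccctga
Ube2c: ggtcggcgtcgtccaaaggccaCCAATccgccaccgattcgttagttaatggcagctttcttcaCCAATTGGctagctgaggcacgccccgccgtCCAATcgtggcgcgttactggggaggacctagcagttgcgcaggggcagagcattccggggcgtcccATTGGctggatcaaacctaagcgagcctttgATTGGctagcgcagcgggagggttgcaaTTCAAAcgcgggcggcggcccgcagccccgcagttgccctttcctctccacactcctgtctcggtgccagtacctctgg
Kif23: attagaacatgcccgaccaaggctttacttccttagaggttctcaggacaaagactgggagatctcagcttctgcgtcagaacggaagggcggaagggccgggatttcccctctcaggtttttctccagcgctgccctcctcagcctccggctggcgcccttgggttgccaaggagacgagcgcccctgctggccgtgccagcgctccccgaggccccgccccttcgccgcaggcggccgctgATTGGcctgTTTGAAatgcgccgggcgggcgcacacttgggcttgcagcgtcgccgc
Hmgb2: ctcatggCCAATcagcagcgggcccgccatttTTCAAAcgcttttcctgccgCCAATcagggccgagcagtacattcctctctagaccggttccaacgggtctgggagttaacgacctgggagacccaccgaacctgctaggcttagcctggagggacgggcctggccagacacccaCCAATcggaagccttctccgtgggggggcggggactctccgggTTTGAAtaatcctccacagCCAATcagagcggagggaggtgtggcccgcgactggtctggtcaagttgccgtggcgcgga
Mcm5 holds 2 E2F matches, which overlap as TTTCGCGCCAAA read from both strands, and Mcm6 holds 3. Ccnb2, Ube2c, Kif23 and Hmgb2 hold no E2F match and 2, 1, 1 and 2 CHR matches in that order. Kif23 and Hmgb2 carry CHR and CCAAT letters like Ccnb2, while the share of UMIs in barcodes rich in other members was 5.49% for Kif23 and 9.35% for Hmgb2, against 59.6% for Ccnb2. A match is a run of letters and was not tested as a binding site.

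Mitotic members were higher in T-gated barcodes of the metastasis lung, and no Mcm gene was called. A gene was called at a 1.5-fold difference or more with a 95% interval that excluded equality, among genes with at least 20 UMIs over both libraries. Of 36 members measured, 14 were called higher and 0 lower, beside 3.02% and 1.04% of all 11851 genes measured. The median log2 ratio of the members was 0.58, and that of all genes was 0.06. Mki67 was at 20.9 CPM in metastasis (102 UMIs) and 5.58 CPM in sham (98 UMIs), a log2 ratio of 1.91 (1.49 to 2.32). The 2 highest ratios were those of Bub1, at 2.46 CPM in metastasis and 0.513 CPM in sham (log2 2.26, 0.89 to 3.69), and Ccnb1, cyclin B1, at 3.29 CPM in metastasis and 0.741 CPM in sham (log2 2.15, 1.00 to 3.33). Top2a was at 22.2 CPM in metastasis and 10.9 CPM in sham (log2 1.03, 0.67 to 1.37). The called genes were mitotic or kinetochore genes except Rrm2, Mki67 and Top2a. Among the genes of licensing and S phase other than Rrm2, the intervals of Mcm4 (log2 0.39, 0.15 to 0.63) and Dut, which clears dUTP (0.24, 0.04 to 0.44), excluded equality below the 1.5-fold limit, and the others included it. Pcna was at 109 CPM in metastasis and 111 CPM in sham, Mcm7 at 25.7 and 25.0 CPM, Mcm5 at 11.3 and 9.52 CPM (log2 0.25, -0.22 to 0.69), and Tyms at 7.19 and 6.50 CPM. Cenpa was at 52.8 CPM in metastasis and 51.7 CPM in sham, Stmn1 at 79.0 and 53.0 CPM, just under the 1.5-fold limit, and Hmgb2 at 479 and 411 CPM.

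Few barcodes carried these calls, and since those barcodes were chosen by the members themselves, leaving them out lowers the members by construction. The same holds for every such removal in the classes below. Without the 14 metastasis and 22 sham barcodes that held 8 or more members, 2 of 25 members measured were called higher, Mki67 at 5.86 CPM in metastasis and a log2 ratio of 1.97 (1.14 to 2.79), and Ube2c at 12.1 CPM in metastasis and 7.73 CPM in sham. Red cell RNA was present beside them. All 7 red cell marker genes used were detected in lung T-gated barcodes of both libraries, at 441 CPM in metastasis and 408 CPM in sham in sum. Had those markers brought cell cycle transcripts along in the ratio found in erythroid barcodes, Ube2c would stand at 19.7 CPM in metastasis and 17.2 CPM in sham, beside the 22.8 and 10.3 CPM found. The 10.3 CPM found in sham lay below the 17.2 CPM that this ratio gives. Red cell RNA outside cells was not measured, so its part in the Ube2c call was not tested. Mki67 would stand at 3.28 CPM in metastasis and 0.370 CPM in sham by the same ratio, and Top2a at 0.225 and 0.0926 CPM. With barcodes over 5% haemoglobin left out, which removed 7 of the 14 and 7 of the 22, the calls fell to 5: Tpx2, an activator of Aurora A, Cenpf, Cdca8, Ube2c and Mki67.

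NK-gated barcodes of the metastasis lung were higher in S-phase as well as mitotic genes. Of 30 members measured, 14 were called higher and 0 lower, beside 2.14% and 1.66% of 10213 genes, with a median log2 ratio of 0.66 for the members and -0.01 for all genes. Top2a was at 42.8 CPM in metastasis (90 UMIs) and 16.6 CPM in sham (75 UMIs), a log2 ratio of 1.37 (0.91 to 1.83). Mki67 was at 23.3 CPM in metastasis and 9.72 CPM in sham (log2 1.26, 0.65 to 1.88). Among the enzymes of nucleotide supply, Tk1, thymidine kinase, was at 6.66 CPM in metastasis and 1.32 CPM in sham (log2 2.33, 0.86 to 4.00), Tyms at 13.3 and 5.74 CPM (log2 1.21, 0.39 to 2.04), and Rrm1, Rrm2 and Dut were called as well. Cdca8, borealin of the passenger complex, was at 13.8 CPM in metastasis and 2.87 CPM in sham (log2 2.26, 1.28 to 3.33), and Cenpe, a kinetochore motor, at 10.9 and 2.87 CPM (log2 1.93, 0.89 to 3.03). At the other end Kif23 was at 16.2 CPM in metastasis and 18.5 CPM in sham, Pcna at 121 and 132 CPM, and Hells, a chromatin remodeller, at a log2 ratio of -0.08. Ccnb1, with 6 UMIs in metastasis and 3 in sham, was not measured, Mcm5 was at 19.5 and 14.6 CPM, Stmn1 at a log2 ratio of 0.39, and Hmgb2 at 801 and 663 CPM. Without the 16 metastasis and 12 sham barcodes with 8 or more members, 1 of 21 members measured was called, Ube2c, with 22 UMIs in metastasis and 23 in sham (log2 1.09, 0.18 to 2.00). The red cell ratio gives Ube2c 14.5 CPM in metastasis and 12.6 CPM in sham there, and 5.16 CPM were found in sham. Leaving out barcodes with a high doublet score left 9 calls.

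B-gated barcodes of the metastasis lung showed 3 of 32 members higher and 0 lower, beside 2.13% and 1.21% of 11361 genes. They were Birc5, at 6.34 CPM in metastasis (21 UMIs) and 1.29 CPM in sham (13 UMIs), a log2 ratio of 2.30 (1.23 to 3.42), Mki67 at 10.6 and 4.66 CPM (log2 1.18, 0.51 to 1.84), and Top2a at 16.6 and 9.61 CPM (log2 0.79, 0.28 to 1.28). Kif11, the kinesin that separates spindle poles, was at 2.72 CPM in metastasis and 1.19 CPM in sham, and its interval included equality. The lowest ratios, all with intervals across 0, were those of Ckap2l (log2 -1.03), Cenpf (-0.83) and Aurka (-0.76). Mcm5, Pcna, Stmn1 and Hmgb2 differed by less than 0.20 on the log2 scale, Tyms was at 3.92 CPM in metastasis and 1.98 CPM in sham (log2 0.99, -0.14 to 2.06), and Ccnb1 had 3 and 12 UMIs. Only 4 metastasis and 6 sham barcodes had 8 or more members, and without them Mki67 alone was called, with 12 UMIs in each library.

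**Figure D4:**
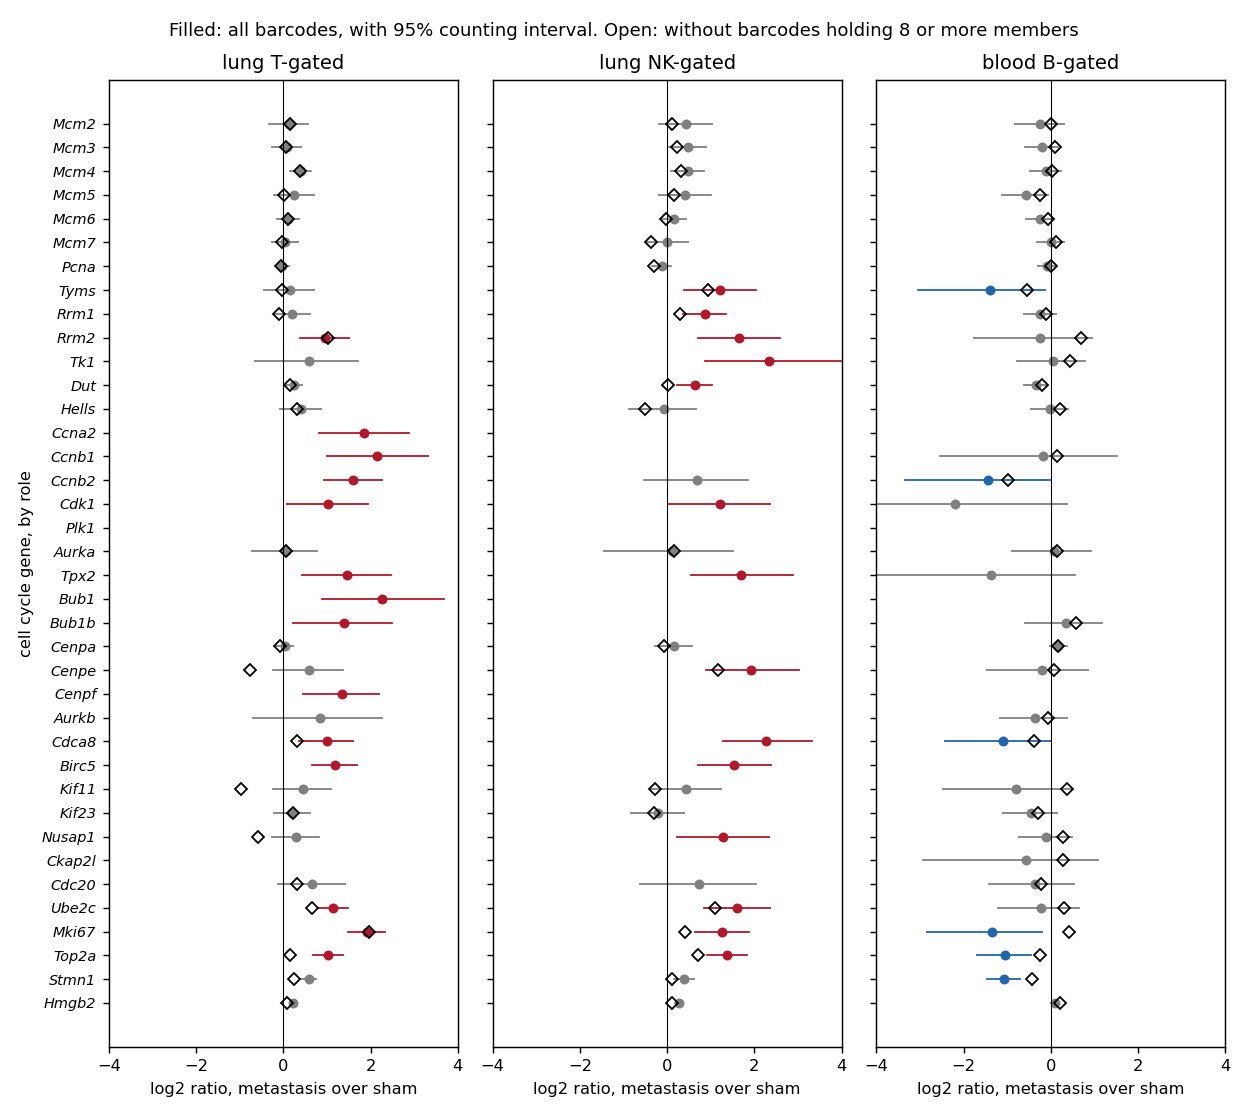
Log2 ratio of CPM without haemoglobin, metastasis over sham (x axis), of each gene (rows, by role) in lung T-gated, lung NK-gated and blood B-gated barcodes, drawn for genes with at least 20 UMIs and UMIs in both libraries. Filled points with 95% counting intervals, clipped at -4 and 4, use all barcodes (red called higher, blue called lower, grey not called), and open diamonds leave out barcodes with 8 or more members: the red and blue points sit away from 0 and most of their diamonds lie nearer to it or are missing for want of UMIs.

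The T-gated barcodes with 8 or more members differed between the 2 lungs in lineage genes chosen after their values were seen. In the metastasis lung, T-gated ones held Dntt, the polymerase that adds bases at receptor gene junctions, in 9 of 14, Arpp21, a gene of thymocytes, in 8 and Rag1, the recombinase, in 7. At least 2 of these 3 genes were found in 9 of the 14, and in 0 of the 22 such barcodes of the sham lung. Among all T-gated barcodes 26 of 1624 in metastasis and 20 of 4658 in sham held at least 2 of the 3. Cd8a was found in 11 of the 14 and 10 of the 22. In the sham lung Cd44, an adhesion receptor of activated T cells, was found in 14 of 22, S100a6 in 15 and Pdcd1, the PD-1 receptor, in 8, whereas Cd44 was found in 1 and S100a6 in 3 of the 14 in metastasis. The 14 also held B cell markers at 798 CPM, mostly Ly6d, found in 9 of them, against 16.3 CPM in the other T-gated barcodes of that library, and none had a high doublet score. The 22 ungated barcodes of the metastasis lung held Car1, carbonic anhydrase 1, in 14, Hemgn in 13, and Klf1, the erythroid transcription factor, in 12, with a median haemoglobin share of 1.38%. Car1 was found in 4.27% and Klf1 in 2.13% of the other 328 ungated barcodes. Gzma, granzyme A, was found in 16 of 16 NK-gated ones in metastasis and 12 of 12 in sham.

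In blood B-gated barcodes the called members were lower in metastasis. Of 36 members measured, 0 were called higher and 7 lower in metastasis, beside 2.86% and 2.47% of 12931 genes, with a median log2 ratio of -0.26 for the members and 0.04 for all genes. Birc5 had 0 UMIs in metastasis and 78 in sham (2.22 CPM). With 3 UMIs as the floor of the metastasis library its log2 ratio was set to -1.66, and its interval reached up to -1.32. Stmn1 had 64 UMIs in metastasis and 1109 in sham (31.5 CPM), a log2 ratio of -1.07 (-1.46 to -0.71). Top2a was at 5.63 CPM in metastasis and 11.6 CPM in sham (log2 -1.04, -1.70 to -0.45), and Mki67 at 1.41 and 3.61 CPM (log2 -1.36, -2.83 to -0.20). Tyms (log2 -1.40), Ccnb2, cyclin B2 (-1.43), and Cdca8 (-1.09) were called too, on 4 to 7 UMIs in metastasis. Cdk1 had 1 UMI in metastasis and 38 in sham (log2 -2.20, -7.54 to 0.36). Among members not called, Pcna was at 60.5 CPM in metastasis and 64.7 CPM in sham, Mcm5 at 8.21 and 12.2 CPM (log2 -0.57, -1.11 to -0.08), Ccnb1 at 0.704 and 0.796 CPM, Cenpa at 58.4 and 51.7 CPM, Hmgb2 at 224 and 209 CPM, and Bub1b, a checkpoint kinase, at 3.28 and 2.59 CPM.

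None of 1618 B-gated barcodes in metastasis blood and 41 of 8020 in sham blood had 8 or more members. With 3 barcodes as the floor for the count of 0, the share in metastasis would be 0.185%. That value is a floor and not a limit of an exact interval, so it does not exclude a larger share. The 41 were deep, with a median of 21071 UMIs without haemoglobin against 3492 in the other B-gated barcodes, and 38 of them had at least 8000 UMIs. Such depth was reached by 10 B-gated barcodes in metastasis and 648 in sham, so the 2 libraries differed in deep B-gated barcodes before any member was counted, and the part of this in the member ratios was not tested. Of the 41, 34 held more UMIs of S-phase than of G2 and M genes, 22 held Top2a and 20 held Mki67. By genes named after their values were seen, 39 held Sox5, 38 Ccnd2, cyclin D2, 36 S100a6, 32 S100a4 and 29 Zbtb32, while Sox5 was found in 19.9%, Ccnd2 in 12.6%, S100a6 in 10.9%, S100a4 in 2.95% and Zbtb32 in 1.92% of the other 7979. Doublet scores over 0.3 were found for 2, and Cd3e, a T cell gene, in 9. Without the 41 no member was called in either direction, among 31 measured. The 41 were chosen by these members and all lay in sham, so leaving them out removes lower calls by construction.

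Blood T-gated barcodes showed 1 of 24 members higher and 0 lower, beside 3.83% and 1.74% of 10931 genes, so the share called was near that of all genes. The called gene was Birc5, with 7 UMIs in metastasis and 13 in sham (3.45 and 1.01 CPM, log2 1.77, 0.20 to 3.20), and without 2 metastasis and 6 sham barcodes no member was called. Mki67 was at 5.91 CPM in metastasis and 2.88 CPM in sham (log2 1.04, -0.04 to 2.01), Cdc20 at 2.46 and 1.17 CPM, and Top2a at 10.3 and 6.62 CPM, each with an interval across 0. The lowest ratios were those of Hells (log2 -0.59), Mcm5 (-0.52) and Mcm3 (-0.40). Pcna was at 53.7 CPM in metastasis and 54.7 CPM in sham, Hmgb2 at 268 and 271 CPM, Stmn1 at 49.3 and 40.4 CPM and Tyms at 4.43 and 4.28 CPM, while Ccnb1 had 1 and 5 UMIs. Blood NK-gated barcodes, 46 in metastasis and 244 in sham, were too few to compare by gene.

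In blood neutrophils 1 of 9 members measured was called, lower (11.1%), beside 13.5% of 8560 genes higher and 16.1% lower. The share of members called was thus no larger than that of all genes in either direction. Kif23 was at 74.3 CPM in metastasis (425 UMIs) and 255 CPM in sham (296 UMIs), a log2 ratio of -1.78 (-2.00 to -1.56). It was detected in 17.8% of 1858 neutrophils in metastasis (16.0 to 19.6%) and 46.3% of 361 in sham (41.0 to 51.6%), against 4.02% and 3.70% of blood T-gated barcodes. The T-gated barcodes were the deeper ones in both libraries. Among neutrophils with fewer than 2 UMIs of the granule genes Ngp, Camp and Ltf, which immature neutrophils make, Kif23 was at 127 CPM in 912 barcodes in metastasis and 260.4 CPM in 357 in sham. At least 2 such UMIs were found in 946 neutrophils in metastasis and 4 in sham, and Kif23 was at 46.4 CPM in those 946. In lung neutrophils Kif23 was detected in 7.68% of 1055 in metastasis and 5 of 38 in sham. Hmgb2 was at 1252 CPM in metastasis and 1013 CPM in sham blood (log2 0.31, 0.22 to 0.40). Pcna was at 24.0 and 22.4 CPM and Mki67 at 7.34 CPM in metastasis (42 UMIs) and 3.45 CPM in sham (4 UMIs), with intervals across 0, as had Aurka (log2 0.42), Stmn1 with 14 and 2 UMIs, Dut (-1.08) and Ckap2l (-0.80). Top2a, Mcm5, Tyms and Ccnb1 had at most 5 UMIs in either library.

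Blood monocytes had 1 of 16 members higher and 5 lower in metastasis, beside 4.62% and 7.72% of 8998 genes. Mcm5 was at 3.30 CPM in metastasis (5 UMIs) and 12.7 CPM in sham (30 UMIs), a log2 ratio of -1.94 (-3.66 to -0.56), Top2a at 5.93 and 16.9 CPM (log2 -1.51, -2.74 to -0.44), and Stmn1 at 11.2 and 23.6 CPM (log2 -1.08, -1.95 to -0.27). Rrm1 and Kif23 were the other 2, and Aurkb, the passenger complex kinase, had a log2 ratio of -1.20 with an interval across 0. Just 2 sham monocytes held 8 or more members, 1 of them with a high doublet score, and without them 0 members were lower and 2 were higher. Ube2c was called higher, at 19.8 CPM in metastasis (30 UMIs) and 3.80 CPM in sham (9 UMIs), where the red cell ratio gives 9.39 CPM in metastasis and 5.35 CPM in sham, and no member was called under a stricter gate. Mki67 was at 7.91 CPM in metastasis and 14.8 CPM in sham, Tyms had 3 and 10 UMIs, Ccnb1 0 and 3, Pcna was at 68.6 and 81.4 CPM, Cenpa at 13.8 and 13.5 CPM, and Hmgb2 at 457 and 386 CPM.

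Erythroid barcodes held Ube2c and Nusap1 in both lungs, and Mki67 and Rrm2 mainly in metastasis. Ube2c was detected in 62.6% of 5328 erythroid barcodes in metastasis and 61.8% of 699 in sham lung, whereas Mki67 was detected in 18.8% in metastasis (17.7 to 19.9%) and 1.72% in sham (0.890 to 2.98%). Of 30 members measured, 8 were higher and 0 lower in metastasis, beside 12.8% and 35.8% of 5103 genes. Rrm2 was at 324 CPM in metastasis (1372 UMIs) and 25.9 CPM in sham (12 UMIs), a log2 ratio of 3.65 (2.84 to 4.60). Mki67 was at 375 CPM in metastasis and 60.3 CPM in sham (log2 2.63, 2.10 to 3.23), Ccnb2 at 168 and 28.0 CPM (log2 2.58), and Tyms at 82.5 and 17.2 CPM (log2 2.26, 1.26 to 3.48). Birc5, Cdca8, Ccna2 and Cenpa were the other called genes. Ube2c was at 2248 CPM in metastasis and 2815 CPM in sham (log2 -0.32), Nusap1 at 676 and 733 CPM (-0.12) and Mcm6 had 30 and 4 UMIs (-0.28). Top2a was at 25.8 and 15.1 CPM, Pcna at 14.7 and 15.1 CPM, Stmn1 at 14.2 and 15.1 CPM, Hmgb2 at 161 and 140.1 CPM, Ccnb1 at 15.6 and 4.31 CPM and Mcm5 at 3.31 and 2.16 CPM, all with intervals across 0. The median log2 ratio of all measured genes was -0.47, and -0.52 over those with UMIs in both libraries, which is the value used for scaling; relative to it Ube2c and Nusap1 were not lower, and 14 members were called higher with that scaling.

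Mki67 was higher in metastasis in every class of gene content. In lung erythroid barcodes of 200 to under 300 genes Mki67 was at 320.0 CPM in 3500 barcodes in metastasis and 15.1 CPM in 557 in sham. With 500 genes or more it was at 756 CPM in 234 in metastasis and 265 CPM in 42 in sham. The sham levels rest on 5 UMIs in the first of these classes and 14 in the last, and those 14 all lay in 1 barcode. The order of Ube2c turned round over the same classes, with 2426 CPM in metastasis and 3491 CPM in sham with 200 to under 300 genes, and 1772 CPM in metastasis and 681 CPM in sham with 500 genes or more. Without the 37 metastasis barcodes and 1 sham barcode with 8 or more members, 6 members stayed higher, Rrm2, Mki67, Ccnb2, Tyms, Birc5 and Ccna2, and Hmgb2 was lower, at 72.3 CPM in metastasis and 117 CPM in sham. The 37 held Klf1 in 19 and Gata1, a further erythroid factor, in 12, and their median haemoglobin share was 71.4%. White cell genes in these barcodes differed as well: Nkg7 was at 11.8 CPM in metastasis and 112 CPM in sham, Ighm, an antibody gene, at 10.9 and 131 CPM, Lyz2, lysozyme, at 19.4 and 114 CPM, and S100a8, a neutrophil gene, at 148 and 149 CPM. Their part in the ratios was not tested.

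In blood the sham class held 183 erythroid barcodes. Of 9 members measured, 2 were higher and 1 lower, beside 28.7% and 8.36% of 2571 genes, so the share called higher was no larger than that of all genes. Mki67 was at 99.5 CPM in 2888 metastasis barcodes (220 UMIs) and 30.9 CPM in sham (5 UMIs), a log2 ratio of 1.69 (0.44 to 3.33), and Rrm2 at 57.9 and 18.5 CPM (3 UMIs in sham; log2 1.64, 0.06 to 3.94). Ccnb2 had 54 UMIs in metastasis and 1 in sham (log2 1.98, -0.55 to 7.31). Nusap1 was at 199 CPM in metastasis and 710.0 CPM in sham (log2 -1.84, -2.14 to -1.53), and Ube2c at 1826 and 2167 CPM (log2 -0.25). The median log2 ratio of all measured genes was 0.55, and 0.73 over those with UMIs in both libraries, and scaled to that value no member was higher and Nusap1 and Ube2c were lower. Tyms was at 29.0 and 12.3 CPM, Hmgb2 at 70.6 and 30.9 CPM, Cenpa at 12.2 and 12.3 CPM and Top2a at 4.98 and 12.3 CPM, with intervals across 0, and Pcna, Stmn1, Mcm5 and Ccnb1 had 0 UMIs in sham.

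**Figure D5:**
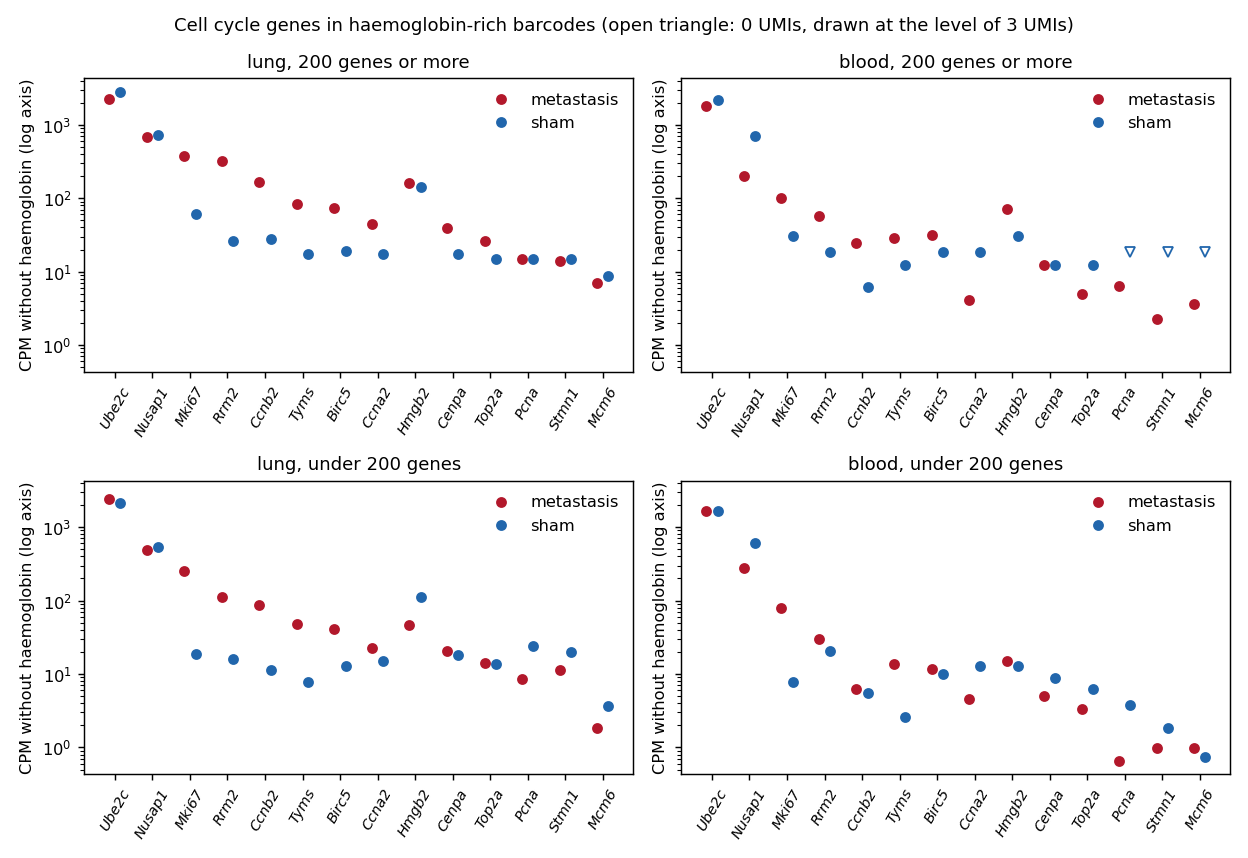
Level of 14 cell cycle genes (x axis) as CPM without haemoglobin on a log axis, in haemoglobin-rich barcodes with 200 genes or more and under 200 genes, metastasis left of sham, with an open triangle for 0 UMIs at the level of 3 UMIs. Ube2c lies above 1000 CPM in all 8 groups, while Mki67 lies higher in metastasis in every panel, at 375 and 60.3 CPM in the upper left one.

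Other genes of the cycle, from 3 lists of 27 further S-phase genes, 39 further G2 and M genes and 19 genes of G1 and of cycle restraint, were measured in the same classes. In lung T-gated barcodes 1 of 25, 5 of 29 and 3 of 19 measured genes of the 3 lists were higher and 0 lower, beside 3.02% and 1.04% of all genes, among them Uhrf1, which maintains DNA methylation (log2 1.11, 0.37 to 1.83), Hmmr, a spindle protein (1.49, 0.37 to 2.58), Anln (1.26), Cdca3 (1.24), Myc (0.67), and the CDK inhibitors Cdkn2c (0.66) and Cdkn2d (0.59). In lung NK-gated barcodes 3 of 19, 2 of 21 and 0 of 18 were higher and 0 lower, beside 2.14% and 1.66% of all genes, among them Clspn, a replication checkpoint protein, at 10.9 CPM in metastasis and 2.21 CPM in sham (log2 2.31, 1.18 to 3.54), Fen1 (0.86), Cks1b (1.60) and Cdca3 (1.33). In lung B-gated barcodes Ccnf alone was called over the 3 lists, lower (log2 -2.20, -5.32 to -0.21), where 1.21% of all genes were lower. In blood B-gated barcodes 0 of 26, 1 of 31 and 1 of 19 were higher and 2, 2 and 0 lower, beside 2.86% and 2.47% of all genes: Uhrf1 (log2 -1.29), Gmnn, geminin (-0.81), Ect2 (2.11 CPM in metastasis and 4.23 CPM in sham) and Racgap1 (-0.72) were lower, and Kif20b (0.61) and Cdkn1a, the p21 inhibitor (0.84), higher. In blood T-gated barcodes 0 of 22, 3 of 21 and 3 of 18 were higher and 0, 1 and 0 lower, beside 3.83% and 1.74% of all genes: among them Tacc3 (1.61), Cks1b (1.21), Cdkn1a (1.75), Cdkn2d (1.14) and Cdk6 (0.62) were higher and Mad2l1 (-1.45) lower.

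In blood neutrophils 2 of 16 measured genes of the restraint list were higher and 4 lower, and of the G2 and M list 1 of 8 was higher and 3 lower, beside the 13.5% and 16.1% of all genes given above. Cyclin D2, Ccnd2, was at 12.6 CPM in metastasis and 53.5 CPM in sham (log2 -2.09, -2.60 to -1.57), and Btg2, an antiproliferative gene, at 458 and 980.1 CPM (log2 -1.10). Cdk2 was at 9.09 CPM in metastasis (52 UMIs) and 1.73 CPM in sham (2 UMIs; log2 2.40, 0.47 to 5.48). Of the G2 and M list, Ect2 (log2 -2.30), Pttg1, securin (-1.54), and Cks2 (-1.48) were lower. In blood monocytes 3 of 10, 2 of 9 and 2 of 17 were lower and 0 higher, beside 7.72% and 4.62% of all genes: Ccnd2 (-2.71), Lig1 (-1.41), Ndc80 (-1.30), Rpa2 (-1.08), Cdk6 (-1.07), Atad2 (-0.90) and Racgap1 (-0.68). In lung erythroid barcodes 3 of 10, 5 of 20 and 1 of 12 were higher and 0, 2 and 4 lower, beside 12.8% and 35.8% of all genes, so the restraint list's share of lower genes was near that of all genes. Cdca3 (log2 2.85), Lig1 (2.78), H2afx (2.28) and Cdkn3 (1.63) were higher and Klf2 (-2.73), Ccnd2 (-2.14) and Ccnd3, cyclin D3 (-1.92), lower. In blood erythroid barcodes no gene of the S-phase list was measured, 2 of 7 of the G2 and M list were higher and 2 lower, and 1 of 8 of the restraint list was lower, beside 28.7% higher and 8.36% lower among all genes. Cdca3 (65 UMIs in metastasis) and H2afx (115 UMIs in metastasis) had 0 UMIs in sham, and Ccnd3 (-2.59), Pttg1 (-1.39) and Cdc25b (-0.78) were lower.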

How the data were processed

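Each of the 4 libraries was deposited as raw UMI counts per gene and barcode; the counts were made with Cell Ranger 7.0.0 per the file headers. Per the submitters' processing notes GRCm38.p6, Seurat 4.3.0.1 and R 4.3.1 were also used, with roles not stated. Library totals ran from 112079231 to 132540945 UMIs, over 18115 to 36125 barcodes.

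From these counts, in Python 3.11.15 with numpy 2.4.6, pandas 2.3.3, scipy 1.17.1 and scanpy 1.11.5, barcodes were kept from 200 genes upward and up to a mitochondrial share of 10%. A class was given by marker lists: at least 3 marker UMIs from 2 markers, and 3 times those of the next class. Of the 16 lists drawn up, the red cell list was not used for gating. Barcodes with 50% haemoglobin or more that reached the marker minimum of no other class were erythroid. This scoring was set after the data were seen. Doublets were not removed; a Scrublet score over 0.3 served in an alternative. UMIs were summed per class and library. Shares have exact Clopper-Pearson intervals and ratios exact conditional binomial intervals at 95%, which cover counting error only. Cells of 1 library are not replicates, and no test across samples exists. Intervals of gene ratios take each UMI as independent and are too narrow where the UMIs of a gene lie in few barcodes. A gene with at least 20 UMIs over both libraries was called at 1.5-fold with an interval excluding equality; a count of 0 was set to a floor of 3 UMIs. The calculation was tested on simulated data with independent counts, so that test says nothing about UMIs gathered in few barcodes.

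Named in each class were Mki67, Top2a, Pcna, Mcm5, Tyms, Ccnb1, Stmn1 and Hmgb2, the 3 largest and 3 smallest ratios, and up to 3 called genes per further list; other names were chosen after their values were seen. The members and lists were chosen with earlier results of these data known. Alternatives changed the UMI minimum, the genes counted, depth, gates, barcode filters, doublets, haemoglobin and scaling. Some genes are not reported here.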

Additional observations from a re-analysis of the deposited data

Results flagged for a closer look

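Haemoglobin-rich barcodes with fewer than 200 genes were outside the comparisons above, and Mki67 and Rrm2 were read in them as well because they lay above their sham levels there. In lung Mki67 was at 255 CPM in 17666 metastasis barcodes (974 UMIs) and 18.7 CPM in 21352 sham barcodes (71 UMIs), a ratio of 13.7 (95% interval 10.7 to 17.6). In blood it was at 79.8 CPM in 9467 metastasis barcodes (242 UMIs) and 7.83 CPM in 7678 sham barcodes (21 UMIs), a ratio of 10.2 (6.52 to 16.8). Rrm2 was at 113 CPM in metastasis and 15.8 CPM in sham lung, a ratio of 7.14 (5.44 to 9.51), and at 30.0 CPM in metastasis and 20.9 CPM in sham blood, a ratio of 1.44 (1.02 to 2.04). Ube2c in the same barcodes was at 2396 CPM in metastasis and 2147 CPM in sham lung, and 1640.0 CPM in metastasis and 1633 CPM in sham blood. Mki67 and Rrm2 were picked on these values, so their intervals do not test the difference. The share of all genes that differed in these barcodes was not worked out. Each of these values rests on 1 library.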

How the results depend on the processing

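The share of barcodes with 5 member UMIs depended on the rule, and the 8-member and 2000-UMI settings were added after the data were seen. For lung T-gated barcodes the ratio of metastasis over sham, 0.710, turned above 1 with at least 10 UMIs (1.10), thinning to 1000 UMIs (1.32), 8 different members (1.83) and 5 different members of 2000 UMIs (2.42). For lung NK-gated barcodes, at 0.902, the same 4 settings gave 1.31, 1.59, 2.52 and 4.51, and leaving out Hmgb2 and Stmn1 gave 1.29. For lung B-gated barcodes, at 0.448, they gave 1.10 (1.095), 1.77, 1.55 and 2.79, while 3 UMIs gave 0.711 and leaving out the 2 genes 0.743. For blood T-gated barcodes, at 0.440, 3 UMIs gave 0.589, 10 UMIs 0.240, thinning 1.10, 8 members 1.46 and the 2000-UMI setting 2.26. For blood B-gated barcodes, at 0.286, they gave 0.567 with 3 UMIs, 0.140 with 10, 0.197 without the 2 genes and 0.509 with the 2000-UMI setting. Blood neutrophils, at 0.996, gave 0.151 without the 2 genes. The cause was not tested.

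With a minimum of 100 UMIs the members called higher were 6 in lung T-gated, 3 in NK-gated and 1 in B-gated barcodes, and 0 in blood T-gated barcodes and blood monocytes, with 1 lower in monocytes. With no minimum, 2 were higher in blood T-gated barcodes, 10 lower in monocytes and 1 lower in lung erythroid barcodes. Without barcodes of 8 or more members, 2, 1 and 1 were higher in lung T-gated, NK-gated and B-gated barcodes, 0 in blood T-gated ones and 2 in monocytes, and 0 were lower in blood B-gated barcodes and monocytes and 1 in lung erythroid ones. Without them log2 ratios turned for Cenpf in lung T-gated (-1.60), Rrm2 (-1.165), Cdk1 (-0.43) and Birc5 (-0.165) in NK-gated, Top2a in lung B-gated (-0.035), Mki67 in blood B-gated barcodes (0.42), and Top2a (0.98) and Stmn1 (1.24) in monocytes. Without barcodes over 5% haemoglobin Rrm2 (-0.56) and Birc5 (-0.10) turned in lung T-gated barcodes. Of 431 log2 ratios for 57 called members, 394 stayed within the 95% interval of the value reported, 27 left it and 10 changed sign; whether each was still called is not counted in these numbers. Calls of members were lost more often: over 5% haemoglobin left out, 5 members were called higher in lung T-gated barcodes, and a stricter gate left 0 in monocytes. No paired analysis was possible because each group had 1 library, so no library could be left out either. Thinning to 1000 UMIs and 8 members gave no ratio in blood B-gated barcodes (0 in metastasis against 21 and 41 in sham), nor 8 members in blood neutrophils (1 against 0). Depth limits every gene with a few UMIs in a class.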
